A study of Mus musculus with 8 samples.

Results

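Aminoacyl-tRNA synthetases are the enzymes that join each amino acid to its transfer RNA before protein synthesis. The 36 genes described here were taken by name, 20 that encode cytosolic enzymes or their subunits and 16 mitochondrial enzymes whose symbols end in 2, out of 55421 genes counted. These sets follow the symbols alone, and whether a gene counted as cytosolic, such as Gars or Kars, also encodes a mitochondrial enzyme was not examined. The rule itself uses gene names and no measured value, and all 36 passed the filter on low counts that left 14647 genes for testing. Symbols are those of GENCODE M21, in which newer names such as Aars1 are still written Aars.

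The cells were E14 mouse embryonic stem cells of 129/Ola background, derived from the blastocyst and grown in serum with the cytokine LIF, which maintains self-renewal. All 4 groups, the control included, carried the same deletion of the miR-290-295 microRNA cluster. Cells received 5 nM of a siPOOL, in which many small interfering RNAs share 1 target transcript, and were harvested after 36 h. The groups were siTfap4, siWiz and siZic2, named for the targeted transcription factor, and siNeg, the negative control siPOOL, with 2 libraries each, described as biological duplicates. The labels do not say how many clones of the deletion line were used. RNA was read by QuantSeq 3' sequencing, which counts transcript ends, so a level in CPM, counts scaled to a common library total with TMM factors, is not divided by transcript length.

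Cytosolic synthetases supply charged transfer RNA to the cytosolic ribosome, and the mitochondrial enzymes, also encoded in the nucleus, supply the separate ribosome inside mitochondria. A group of the cytosolic enzymes is held in a multi-synthetase complex by scaffold proteins. In mammalian cells the transcription factor Atf4, translated when amino acids are short, is known to raise transcription of many cytosolic synthetase genes through composite sites that it binds with Cebp proteins. Tfap4 is a basic helix-loop-helix factor that binds the E-box CAGCTG, and the related Myc and Max proteins bind CACGTG.

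The promoter sequences of the genes that bear such sites are shown because the siPOOL of each treated group was directed at the transcript of a DNA-binding factor. RefSeq promoter windows of GRCm38.p6, running from 250 bases before to 50 bases after the gene start, were matched for 27 of the 36 genes. The 9 others were Cars, Hars, Hars2, Lars, Nars, Pars2, Rars, Vars and Wars. Among the 4 genes called in siTfap4 below (Farsa, Sars, Tars and Rars2), the letters of all 3 motifs were found in the Tars window, and none of the 3 in the other windows. The Tars window (chr15:11399609-11399908, minus strand, 5' to 3') is printed with the motifs in capitals, where TTGCATCAGCTG is the reverse complement of a TGATGNAA composite overlapping a CAGCTG E-box and CACGTG is the Myc-type E-box.
Tars promoter: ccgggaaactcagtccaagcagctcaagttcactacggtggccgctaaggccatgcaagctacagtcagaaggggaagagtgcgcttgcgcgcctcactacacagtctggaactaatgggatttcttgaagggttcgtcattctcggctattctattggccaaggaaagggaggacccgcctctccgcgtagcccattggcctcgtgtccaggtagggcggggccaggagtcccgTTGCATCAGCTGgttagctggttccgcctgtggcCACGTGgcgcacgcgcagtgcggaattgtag

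The composite TGATGNAA, searched on both strands, was found in 5 of the 27 windows (18.5%, against 4.06% of 27025 mouse promoters), all of them of cytosolic genes. For each of these genes 1 match is shown, on the strand that reads TGATGNAA, with those 8 letters in capitals.
Aars, at position 10 after the gene start: cagagcgctcTGATGAAAagtgacccgc
Gars, 30 bases before the start: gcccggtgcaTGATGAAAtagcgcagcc
Iars, at position 8 after: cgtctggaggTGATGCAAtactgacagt
Tars, 15 bases before: gctaaccagcTGATGCAAcgggactcct
Yars, at position 4 after: cgagctcagcTGATGCAAcccgacggga
In both Tars and Yars the composite overlaps a CAGCTG. This E-box was present in 4 windows (Tars, Yars, Mars2 and Yars2; 14.8%, against 16.1% of all promoters) and CACGTG in 5 (Aars, Farsb, Iars, Tars and Ears2; 18.5%, against 7.24%). A match of letters is a description of the window and does not show that a factor binds there.

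Facts of the libraries that bear on the genes were as follows. Library totals were 8326675 to 13788856 counts, and every synthetase gene had 28 to 15745 counts in every library. The targeted transcript Tfap4 had 12.03 and 15.7 CPM in siTfap4, against 33.4 and 37.1 CPM in siNeg (log2 fold change -1.34, SE 0.25, adjusted p = 0.00417). Wiz had 16.8 and 19.7 CPM in siWiz, against 49.9 and 46.1 CPM in siNeg (log2 -1.40, SE 0.24). It did not pass the test in edgeR (adjusted p = 0.708), but did in DESeq2 (adjusted p = 0.00315). Zic2 had 2.15 and 1.83 CPM in siZic2, against 4.49 and 2.21 CPM in siNeg (log2 -0.75, SE 0.45, adjusted p = 1.00), so a lower level in the libraries labelled siZic2 was not established. Unless another tool is named, adjusted p-values come from the quasi-likelihood test of edgeR, adjusted by Benjamini-Hochberg over 14647 genes, and a gene is called higher or lower at an adjusted p under 0.05. Embryonic stem cell markers were present in every library, at a summed 3115 to 3670 CPM over 10 genes with none at 0. Of these 10, 3 were called higher and 1 lower in siTfap4 than in siNeg (Pou5f1 2.03-fold higher, Nanog 2.80-fold lower). Of all genes tested, 4.24% were called higher and 11.7% lower. Another gene model lies over the end of Pou5f1 on the opposite strand, so its value is uncertain where counting ignored strand. Summed markers of fibroblasts (7.62 to 13.2 CPM), primitive endoderm (5.28 to 9.56 CPM) and trophectoderm (11.9 to 15.1 CPM) stayed low in every library, with 1 to 4 of 7 fibroblast markers at 0. The part of the marker changes in the results below was not tested. In such bulk libraries, fewer cells of a type and less RNA per cell cannot be told apart.

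The 36 genes differed in level far more than the groups did. Per transcript end, the cytosolic genes had a median of 288 CPM over the 8 libraries (65.4 to 1169 CPM) and the mitochondrial genes a median of 22.2 CPM (6.39 to 134 CPM). Above 100 CPM on average were 19 of the 20 cytosolic genes and 1 mitochondrial gene, Iars2. The highest were Eprs, the bifunctional glutamyl-prolyl enzyme, at 1169 CPM, Nars, the asparaginyl enzyme, at 1091 CPM, and Gars, the glycyl enzyme, at 798 CPM. The lowest were the mitochondrial leucyl Lars2 at 12.1 CPM, prolyl Pars2 at 9.02 CPM and asparaginyl Nars2 at 6.39 CPM. The sets overlap where Iars2, the mitochondrial isoleucyl enzyme, stands above the cytosolic Vars, Hars and Wars in the plot of levels by library.

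**Figure D1:**
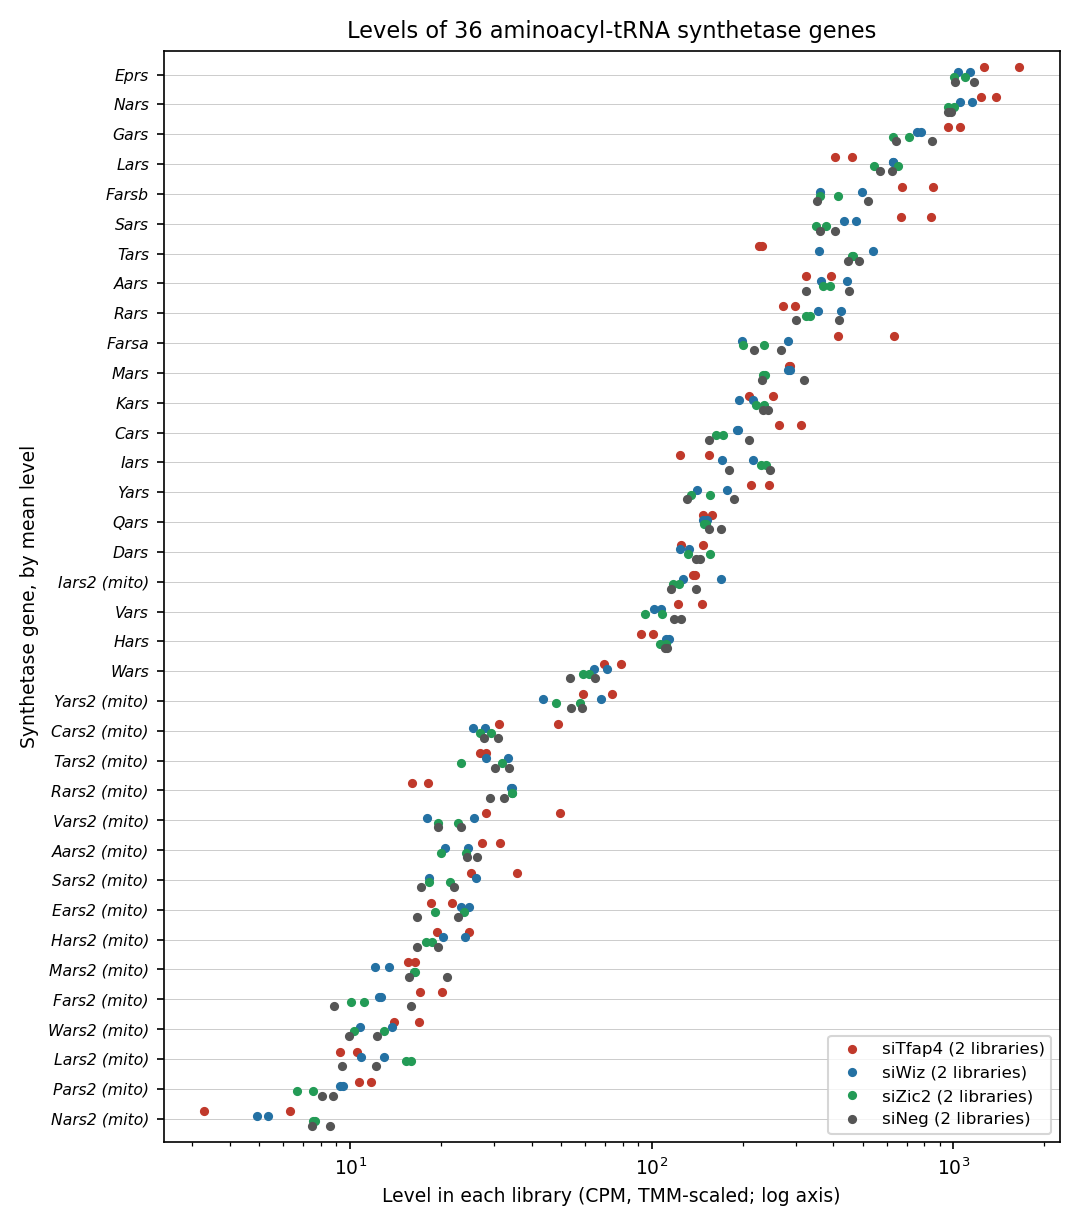
Level of each of the 36 synthetase genes in each of the 8 libraries (x axis, TMM-scaled CPM on a log axis; 1 point per library, coloured by siPOOL), ordered by mean level. Cytosolic genes span 65.4 to 1169 CPM on average and mitochondrial genes 6.39 to 134 CPM, and the siTfap4 points stand apart from the others for Farsa, Sars, Tars and Rars2.

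Cytosolic and mitochondrial genes whose symbols differ only by the final 2 formed 13 pairs, and the cytosolic gene was the higher in all 13. Eprs, Farsa and Farsb share amino acids with Ears2, Pars2 and Fars2 under other symbols and were not paired. Over the 13 pairs, the ratio of CPM ran from 1.46 for Iars over Iars2 to 171 for Nars over Nars2, with a median of 11.7. Nars and Nars2 thus join the second-highest and the lowest gene of the set. These ratios compare transcript ends of different genes and carry whatever differs in how well each end is read. Summed over each set, cytosolic synthetases made up 8888 ± 743 CPM in siTfap4, 7549 ± 55.2 CPM in siWiz, 7016 ± 34.4 CPM in siZic2 and 7346 ± 517 CPM in siNeg (SD, n = 2 each). The mitochondrial sum was 506 ± 21.5 CPM in siTfap4, 473 ± 61.1 CPM in siWiz, 435 ± 6.62 CPM in siZic2 and 449 ± 35.0 CPM in siNeg. The cytosolic sum over the mitochondrial sum lay between 14.6 and 18.1 in all 8 libraries, with both ends of that range in treated libraries and the siNeg libraries at 16.4 and 16.3.

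Replicates of a group were closer for these genes than for genes at large. The median absolute log2 difference between the 2 libraries of a group was 0.24 for siTfap4, 0.15 for siWiz, 0.12 for siZic2 and 0.24 for siNeg. Over all genes tested, many of which have fewer counts, it was 0.40 for siTfap4, 0.30 for siWiz, 0.25 for siZic2 and 0.36 for siNeg. In siNeg, 24 of the 36 genes were higher in replicate 2 than in replicate 1. The coefficient of variation over the 8 libraries had a median of 17.5% and was lowest for Qars, the glutaminyl enzyme, at 4.82% and highest for Farsa at 48.9%.

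In siTfap4 a few synthetase genes changed, in both directions. Against siNeg, 2 genes rose (Farsa and Sars), 2 fell (Tars and Rars2) and 32 were not called, so 4 of 36 passed the test, against 15.9% of all genes tested. By direction, 4.24% of all genes were called higher and 11.7% lower. At an unadjusted p under 0.05 there were 9 synthetase genes (32.4% of all genes), and DESeq2 called 5 higher and 2 lower (18.7% of all genes). The median log2 fold change was 0.10 for the 20 cytosolic genes and 0.23 for the 16 mitochondrial genes, against 0.01 over all genes tested.

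Farsa (ENSMUSG00000003808; GRCm38 chromosome 8, 84856989 to 84869257, plus strand) encodes the alpha, catalytic subunit of cytosolic phenylalanyl-tRNA synthetase. It had 634 and 415 CPM in siTfap4, 199 and 282 CPM in siWiz, 200.3 and 235 CPM in siZic2, and 218 and 267 CPM in siNeg. Both siTfap4 libraries lay above all 6 others, and replicate 1 was the higher by a wide margin. Against siNeg it was 2.16-fold higher (log2 1.11, SE 0.27, adjusted p = 0.0169).

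Farsb encodes the beta subunit of the same enzyme and, per transcript end, had the higher level of the pair in siNeg. It had 856 and 675 CPM in siTfap4, 360 and 496 CPM in siWiz, 361 and 416 CPM in siZic2, and 353 and 522 CPM in siNeg. The siTfap4 libraries again lay above all others, but the siNeg libraries were far apart, and the difference from siNeg missed the threshold (log2 0.81, SE 0.27, adjusted p = 0.0563). The 3' end of Farsb shares sequence with Sgpp2, which lies over it on the opposite strand, so its count is uncertain where counting ignored strand.

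Sars (ENSMUSG00000068739; chromosome 3, 108424865 to 108445209, minus strand) encodes cytosolic seryl-tRNA synthetase, which also charges the selenocysteine transfer RNA. Its level was 841 and 668 CPM in siTfap4, 432 and 476 CPM in siWiz, 350 and 379 CPM in siZic2, and 360 and 406 CPM in siNeg. The siTfap4 libraries were the highest of the 8 and the groups did not overlap. The change against siNeg was 1.97-fold (log2 0.98, SE 0.23, adjusted p = 0.0141).

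Tars (ENSMUSG00000022241; chromosome 15, 11382301 to 11399665, minus strand), the cytosolic threonyl enzyme, fell. It had 232 and 227 CPM in siTfap4, 541 and 358 CPM in siWiz, 464 and 460 CPM in siZic2, and 485 and 446 CPM in siNeg. The siTfap4 replicates were nearly equal and below all other libraries, whereas the siWiz replicates were far apart. The level was 2.03-fold lower than in siNeg (log2 -1.02, SE 0.24, adjusted p = 0.0154). Tars is also the gene whose promoter window, printed above, holds the letters of all 3 motifs. Of the other genes with CAGCTG in the window, Yars (log2 0.52) and Yars2 (0.24) lay above siNeg and Mars2 (-0.20) below. None of these was called, and a part of the motifs in the changes was not tested.

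Rars2 (ENSMUSG00000028292; chromosome 4, 34614957 to 34660167, plus strand) encodes the mitochondrial arginyl enzyme. It stood at 15.99 and 18.2 CPM in siTfap4, 34.2 and 34.5 CPM in siWiz, 34.3 and 34.4 CPM in siZic2, and 29.1 and 32.4 CPM in siNeg. Every siTfap4 value was below every other value. The level was 1.80-fold lower than in siNeg (log2 -0.85, SE 0.23, adjusted p = 0.0286). It rests on 129 and 155 counts in the siTfap4 libraries and 350 and 337 counts in the siNeg libraries.

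**Figure D2:**
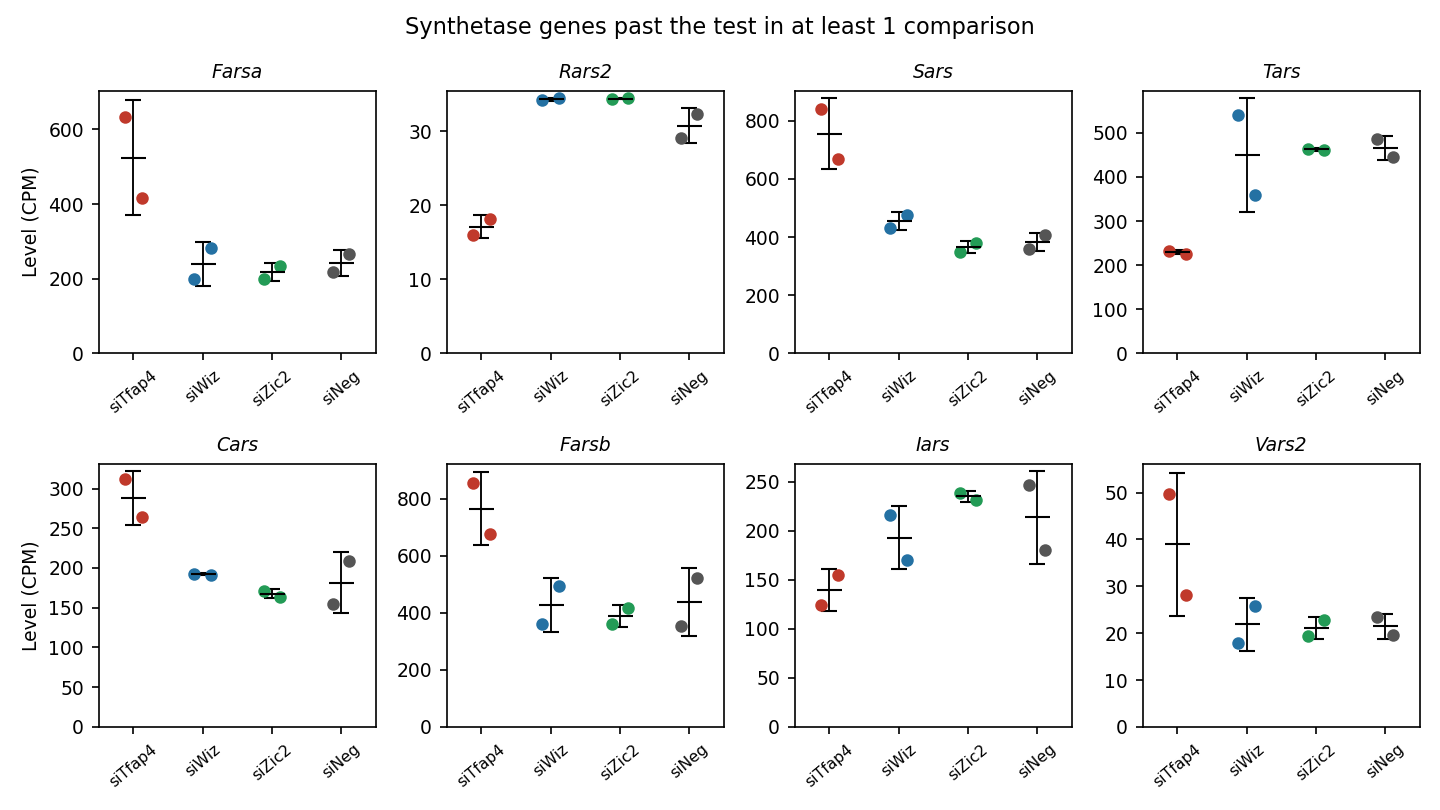
Levels (CPM, axes from 0) in each library of the 8 synthetase genes called in at least 1 comparison; points are libraries, bars the mean and SD of 2 libraries, from siTfap4 on the left to siNeg on the right. Farsa, Sars, Cars, Farsb and Vars2 are highest and Tars, Rars2 and Iars lowest in both siTfap4 libraries.

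All 4 calls rest on the replicates of the 2 groups. Without siTfap4 replicate 1, or without siNeg replicate 1, none of the 36 genes was called, while the share of all genes called was 3.28% and 4.89%. The log2 fold changes kept their sign in those fits. Without siTfap4 replicate 1 they were 0.77 for Farsa, 0.80 for Sars, -1.05 for Tars and -0.77 for Rars2, with adjusted p between 0.0781 and 0.157. Without siNeg replicate 1 they were 0.99 for Farsa, 0.91 for Sars, -0.94 for Tars and -0.90 for Rars2, with adjusted p between 0.0751 and 0.110. Rars2 was also not called without siNeg replicate 2 (adjusted p = 0.0848), without siZic2 replicate 1 (0.0625) or without siZic2 replicate 2 (0.0624), as all groups share 1 estimate of the spread. With siTfap4 and siNeg fitted alone, Farsa and Tars were called and Sars (adjusted p = 0.0553) and Rars2 (0.0776) were not.

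The 32 other genes leaned in both directions without passing the test against siNeg. Of all 36, 22 had a log2 fold change above 0 and 14 below, where 50.6% of all genes were above 0. Both siTfap4 libraries lay above both siNeg libraries for 17 genes and below them for 8, shares to be read against 29.6% and 29.5% of all genes. After Farsb, nearest to a call stood cytosolic cysteinyl Cars (312 and 264 CPM in siTfap4, against 154 and 209 CPM in siNeg; log2 0.66, SE 0.23, adjusted p = 0.0648). Mitochondrial valyl Vars2 had 49.7 and 28.1 CPM in siTfap4, against 23.4 and 19.5 CPM in siNeg (log2 0.86, SE 0.30, adjusted p = 0.0681). Cytosolic isoleucyl Iars had 124 and 155 CPM in siTfap4, against 247 and 180.1 CPM in siNeg (log2 -0.62, SE 0.24, adjusted p = 0.0992). In all 3 genes the groups did not overlap but 1 group had a wide gap between its libraries. For 21 of the 36 genes the 95% interval of the fold change lay within 2-fold in either direction, against 30.5% of all genes, and changes over 2-fold lie outside those 21 intervals.

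**Figure D3:**
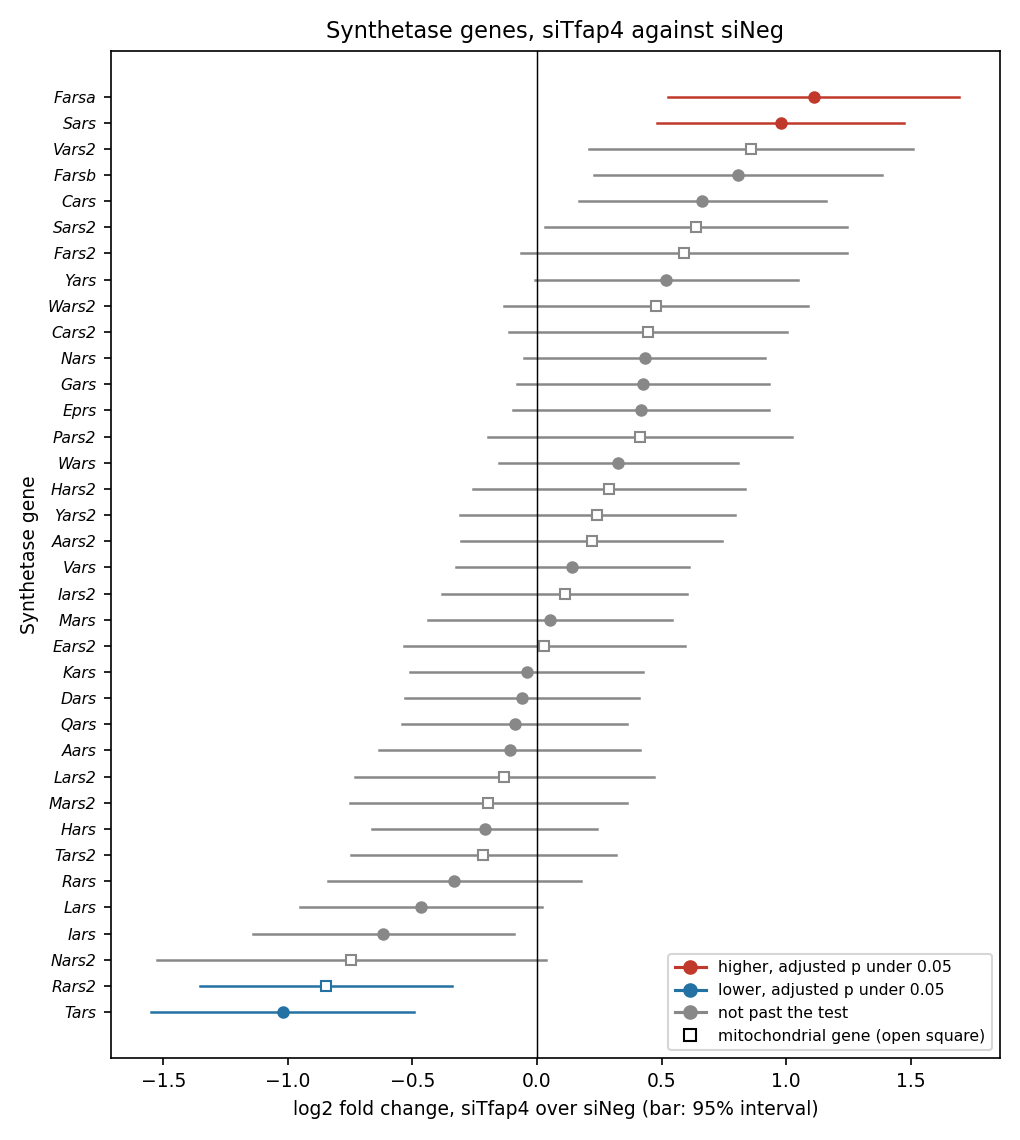
Log2 fold change of each synthetase gene, siTfap4 over siNeg, with its 95% interval (bars); circles are cytosolic and open squares mitochondrial genes, and coloured symbols passed an adjusted p under 0.05. Farsa (1.11) and Sars (0.98) stand at the top, Tars (-1.02) and Rars2 (-0.85) at the bottom, and the remaining intervals are grey.

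The calls of siTfap4 against siNeg were also counted by class of synthetase, to be read beside the 15.9% of all genes called by edgeR, 18.7% by DESeq2 and 32.4% with an unadjusted p under 0.05. None of the 8 catalytic members of the multi-synthetase complex (Dars, Eprs, Iars, Kars, Lars, Mars, Qars and Rars) was called by edgeR or by DESeq2, 1 of them (Iars) had an unadjusted p under 0.05, and their median log2 was -0.07. With the offset for G and C content and length, Eprs was called higher. Against siZic2, without that offset, Iars was called lower. Their summed level was 3119 ± 138 CPM in siTfap4 and 3078 ± 29.0 CPM in siNeg (SD, n = 2 each). By catalytic fold, edgeR called 2 of 10 class II cytosolic genes higher and 1 lower, and DESeq2 called 3 higher and 1 lower. None of 9 class I genes was called by edgeR, 2 had an unadjusted p under 0.05, and DESeq2 called 1. Of the 16 mitochondrial genes, edgeR called 1 lower and none higher, and 3 had an unadjusted p under 0.05. DESeq2 called 1 of the 16 higher (Vars2) and 1 lower. No test of a difference between classes was made.

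For the same amino acid, the cytosolic and mitochondrial genes did not always lie on the same side of 0 in siTfap4. Of the 13 pairs matched by symbol, 5 had opposite signs. Sars and Sars2 were both above siNeg (log2 0.98 and 0.64), and Tars and Tars2 both below (-1.02 and -0.21). Rars and Rars2 were likewise both below (-0.33 and -0.85). Iars and Iars2 lay on opposite sides (-0.62 and 0.11), as did Nars and Nars2 (0.43 and -0.74). The test of a difference between the genes of a pair was not made.

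The 5 genes with a TGATGNAA match in their promoter window did not share a direction in siTfap4. Against siNeg the log2 fold change was -0.11 for alanyl Aars, 0.43 for Gars, -0.62 for Iars, -1.02 for Tars and 0.52 for tyrosyl Yars. Aars had 324 and 393 CPM in siTfap4, against 325 and 450 CPM in siNeg, which overlap. Gars had 1053 and 959 CPM in siTfap4, against 646 and 851 CPM in siNeg, and Yars had 244 and 213 CPM in siTfap4, against 131 and 188 CPM in siNeg. Both were higher in each siTfap4 library than in each siNeg library and neither passed the test (adjusted p = 0.228 for Gars and 0.16 for Yars). The sign for Aars turned without siTfap4 replicate 1 (log2 0.01) and without siNeg replicate 2 (0.13).

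Genes around the synthetases were read from lists chosen by function. Their calls in siTfap4 against siNeg are to be read beside the 4.24% of all genes called higher and 11.7% called lower. Of 3 scaffold proteins of the multi-synthetase complex, Eef1e1 fell to 15.6 and 26.0 CPM in siTfap4, against 55.6 and 34.4 CPM in siNeg (log2 -1.11, adjusted p = 0.0433). Aimp2 (log2 0.74, adjusted p = 0.0606) and Aimp1 (log2 0.32, adjusted p = 0.369) were not called, so the scaffolds showed no common direction. In DESeq2, Aimp2 passed the threshold as higher (adjusted p = 0.0377). The threonyl relative Tarsl2, outside the 36, averaged 3.81 ± 0.577 CPM in siTfap4 and 3.71 ± 1.45 CPM in siNeg (SD, n = 2 each) and was not called (log2 0.03, adjusted p = 0.969). Its sign turned with library totals alone and with a library left out.

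Among enzymes that act on charged transfer RNA, 1 of 4 editing and deacylation genes fell, Dtd1, which clears D-amino acids from transfer RNA (6.57 and 14.4 CPM in siTfap4, against 21.6 and 26.0 CPM in siNeg; log2 -1.17, adjusted p = 0.0357). None of 3 genes of the mitochondrial amidotransferase, which makes glutaminyl transfer RNA there, was called by edgeR or DESeq2 or had an unadjusted p under 0.05, and Qrsl1 had the smallest p (log2 -0.37, adjusted p = 0.317). Of 5 cytosolic elongation factors, Eef1a1, which brings charged transfer RNA to the ribosome, rose to 417 and 300 CPM in siTfap4, against 151 and 141 CPM in siNeg (log2 1.30, adjusted p = 0.00360). Of 4 mitochondrial elongation factors, Gfm1 (log2 -1.37, adjusted p = 0.0106) and Tsfm (log2 -1.18, adjusted p = 0.0386) fell. The other 2 had a log2 fold change above 0 and were not called. These calls are to be read beside the 4.24% of all genes called higher and 11.7% called lower. Among the genes of these lists, the ends of Aimp1 and Aimp2 hold sequence also found in other genes, and another gene model lies over the ends of Aimp2, Tarsl2, Tsfm and Eef1a1, so their values are uncertain.

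The list of 20 genes known from the Atf4 response moved in both directions in siTfap4, with 4 higher and 4 lower than in siNeg. Of all genes tested, 4.24% were called higher and 11.7% lower. DESeq2 called 4 of the 20 higher and 5 lower, against 18.7% of all genes in either direction. The 3 with the smallest p all fell and belong to serine synthesis and amino acid import. Phgdh, the first enzyme of serine synthesis, had 8.31 and 15.7 CPM in siTfap4, against 52.7 and 94.4 CPM in siNeg (log2 -2.61, adjusted p = 0.000763), but its end is shared with 14 other gene models, so the value is uncertain. Psph, which completes that pathway, had a log2 fold change of -1.52 (adjusted p = 0.00705), and the cationic amino acid transporter Slc7a3 one of -1.76 (adjusted p = 0.00414). Other listed genes of these functions did not all fall. Psat1, also of serine synthesis, had a log2 fold change of 0.37 and the transporter Slc7a1 one of 0.35, neither called. The transporter Slc7a11 was called lower (log2 -0.97, adjusted p = 0.0299). Slc3a2 (-0.97) and Slc7a5 (-0.84, with another gene model over its end) lay below siNeg without a call. The 4 higher genes were Atf4, Ddit3, Chac1 and Atf5, named here after their values were seen (log2 0.84, 1.34, 0.76 and 1.00). Among the synthetase genes, the end of Mars lies over Ddit3 on the opposite strand, and Mars had 285 and 287 CPM in siTfap4, against 231 and 320 CPM in siNeg, with no call (log2 0.05).

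The siWiz libraries gave no call among these genes. In siWiz against siNeg, 0 of 36 were called by edgeR (0% of all genes tested), 0 had an unadjusted p under 0.05 (1.82% of all genes) and DESeq2 called 0 (0.00683% of all genes). The smallest p belonged to the mitochondrial methionyl gene Mars2, with 13.5 and 12.1 CPM in siWiz, against 15.6 and 20.95 CPM in siNeg (log2 -0.51, SE 0.26, adjusted p = 1.00). Nars2 came next, with 4.90 and 5.35 CPM in siWiz, against 8.56 and 7.496 CPM in siNeg (log2 -0.65, SE 0.35), and then Hars2, with 20.2 and 24.1 CPM in siWiz, against 16.7 and 19.5 CPM in siNeg (log2 0.29, SE 0.25). The groups did not overlap in any of the 3, yet none had an interval that excluded 0. Intervals were within 2-fold either way for 34 of the 36 genes, all 20 cytosolic ones among them, against 58.3% of all genes, and the medians were 0.01 for cytosolic and 0.08 for mitochondrial genes.

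The siZic2 libraries likewise gave no call. In siZic2 against siNeg, 0 of 36 were called by edgeR (0% of all genes), 0 had an unadjusted p under 0.05 (0.587% of all genes) and DESeq2 called 0 (0% of all genes). Mitochondrial leucyl Lars2 had the smallest p, at 15.9 and 15.3 CPM in siZic2, against 12.2 and 9.42 CPM in siNeg (log2 0.53, SE 0.27, adjusted p = 1.00). It was followed by cytosolic valyl Vars, at 108 and 95.2 CPM in siZic2, against 125 and 118 CPM in siNeg (log2 -0.26, SE 0.22). Then came methionyl Mars, at 234 and 236 CPM in siZic2, against 231 and 320 CPM in siNeg (log2 -0.23, SE 0.23). The Lars2 and Vars groups did not overlap, the Mars groups did, and none of the 3 intervals excluded 0. Intervals within 2-fold covered 35 of 36 genes, against 61.2% of all genes, with medians of -0.06 for cytosolic and -0.07 for mitochondrial genes. As Zic2 itself was not shown to be lowered, these values describe the siPOOL and not a loss of the factor.

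**Figure D4:**
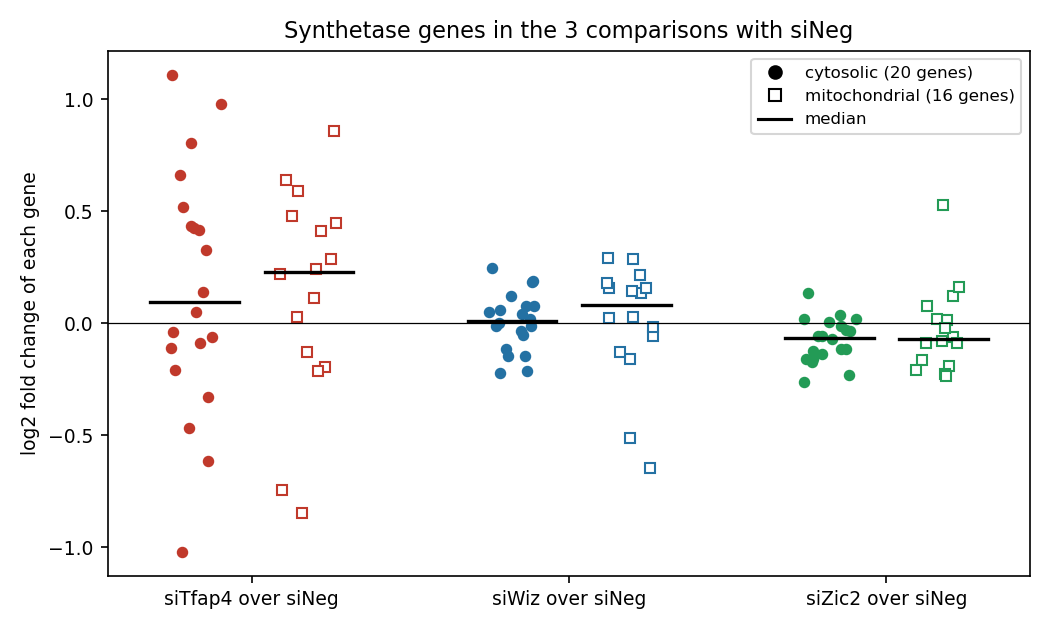
Log2 fold change of each synthetase gene in the 3 comparisons with siNeg (filled circles cytosolic, open squares mitochondrial, lines the medians). Values run from -1.02 to 1.11 in siTfap4, and all 20 cytosolic genes lie within -0.22 to 0.25 in siWiz and within -0.26 to 0.14 in siZic2; the 3 comparisons share the siNeg libraries.

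The differences between siPOOLs were tested directly, with the siTfap4 libraries shared between these comparisons and the one with siNeg. In siTfap4 against siWiz, 4 of 36 genes were called (15.1% of all genes; 4.66% higher and 10.4% lower), Farsa (log2 1.13, SE 0.27) and Sars (0.73, SE 0.23) higher and Tars (-0.97, SE 0.24) and Rars2 (-1.01, SE 0.23) lower, with adjusted p from 0.0140 to 0.0473. None of them was called without siTfap4 replicate 1 or without siWiz replicate 1, and Sars was not called without siWiz replicate 2 or without either siZic2 library. In siTfap4 against siZic2, 8 of 36 were called, 5 higher and 3 lower (23.1% of all genes; 8.41% higher and 14.7% lower). Farsa (log2 1.27, SE 0.27, adjusted p = 0.00654) and Sars (1.05, SE 0.23, adjusted p = 0.00728) were again higher, and Rars2 (-1.01, SE 0.23, adjusted p = 0.00966) and Tars (-1.01, SE 0.24, adjusted p = 0.0116) lower.

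Of the other 4 genes called in siTfap4 against siZic2, Farsb had 856 and 675 CPM in siTfap4, against 361 and 416 CPM in siZic2 (log2 0.98, adjusted p = 0.0204). Cars had 312 and 264 CPM in siTfap4, against 172 and 164 CPM in siZic2 (log2 0.78, adjusted p = 0.0283), and Vars2 had 49.7 and 28.1 CPM in siTfap4, against 19.5 and 22.8 CPM in siZic2 (log2 0.88, adjusted p = 0.04996, just under the threshold). Iars fell to 124 and 155 CPM in siTfap4, against 238.7 and 231 CPM in siZic2 (log2 -0.75, adjusted p = 0.0402). The siZic2 replicates lay close together for all 4. None of the 4 was called with an offset for G and C content and length of the transcript, which left 6 genes called (Farsa, Sars, Tars and Rars2, and also Eprs and Yars2), against 26.5% of the genes in that fit. Vars2 was also not called with RLE size factors, with library totals alone, with the compared groups fitted alone or with libraries thinned to 1 depth. No gene was called without siTfap4 replicate 1 or siZic2 replicate 1, and only Farsa without siZic2 replicate 2. Vars2 was also not called without siWiz replicate 1 or either siNeg library, nor Iars without siWiz replicate 2.

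In siWiz against siZic2, 0 of 36 genes were called by edgeR (0% of all genes), 0 had an unadjusted p under 0.05 (2.62% of all genes) and DESeq2 called 0 (0% of all genes). Nars2, at 4.90 and 5.35 CPM in siWiz and 7.55 and 7.64 CPM in siZic2, had the smallest p (log2 -0.57, SE 0.36). Lars2 (log2 -0.39, SE 0.27) and Sars (log2 0.32, SE 0.23) followed, and the adjusted p was 1.00 for all 3. Intervals were within 2-fold for 34 of 36 genes, against 56.5% of all genes.

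In siTfap4, the change of a synthetase gene moved with the base composition of its transcript end. Across the 36 genes, the log2 fold change against siNeg and the percentage of G and C in the last 300 bases had a Pearson r of 0.49 and a Spearman rho of 0.56, all points sharing the same 4 libraries. Over 12483 protein-coding genes r was 0.30. Of the 14 synthetase genes with under 45% G and C, 10 were below siNeg (median log2 -0.16), and of the 22 others 18 were above it (median 0.42). The ends of Tars (38.7%), Rars2 (40.7%) and Sars (42.0%) were in the first set and that of Farsa (52.0%) in the second, so Sars is the called gene that departs from the relation. For siWiz r was 0.23 and for siZic2 it was -0.43, both with siNeg as the shared control.

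With an offset fitted for G and C content and length over protein-coding genes, r over the synthetase genes was -0.07, and 20 lay above 0 and 16 below. All 4 calls against siNeg remained, with log2 values of 0.72 for Farsa, 1.08 for Sars, -0.83 for Tars and -0.63 for Rars2. Eprs (0.58) was then also called higher, and Vars (-0.65) and Tars2 (-0.75) lower, which makes 7 of 36, against 20.2% of the genes in that fit. Farsb (0.44), Cars (0.06) and Vars2 (0.32) were not called with the offset. In siTfap4 against siWiz the same offset left the 4 calls in place, and in siWiz or siZic2 against siNeg it gave no call.

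**Figure D5:**
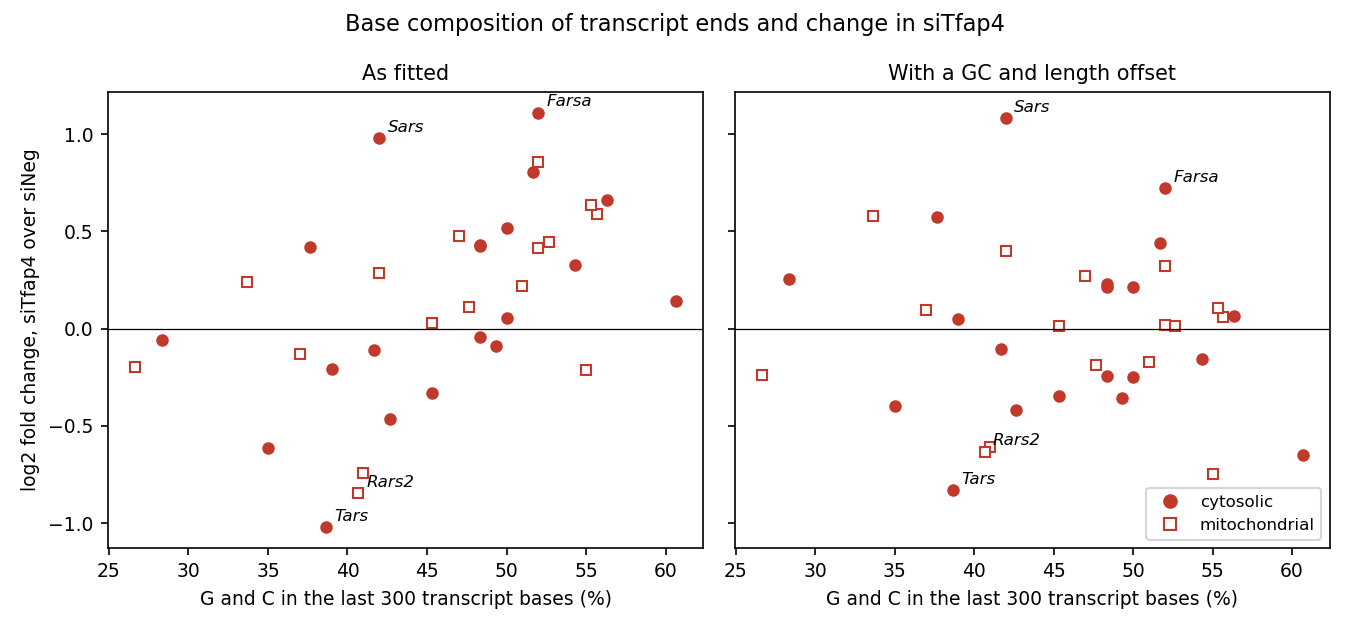
Log2 fold change, siTfap4 over siNeg, of the 36 synthetase genes against the G and C percentage of the last 300 transcript bases, as fitted (left) and with an offset for G and C content and length (right); filled circles cytosolic, open squares mitochondrial. The points rise to the right as fitted (r = 0.49) and show no slope with the offset (r = -0.07), while Sars and Farsa stay high and Tars and Rars2 low.

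Some values are uncertain because transcript ends are shared. The last 300 bases of 4 of the 36 genes hold sequence also found in another gene (Aars with Exosc6, Farsb with Sgpp2, Cars2 with Naxd, Iars2 with Rab3gap2). Another gene model overlies the end of 8 genes, which adds Mars, Yars, Fars2 and Vars2 to these 4. None of Farsa, Sars, Tars and Rars2 is among them.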

How the data were processed

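The deposited values are the authors' whole-number read counts, without normalization, for each Ensembl gene in 8 QuantSeq 3' libraries. Per the submitters' processing notes, reads were trimmed with Trim Galore and the build was GRCm38. The aligner, counter, annotation release, strand setting and any molecular identifiers were not given in the sources used here. Counting noise alone did not account for the spread between replicates (chi-square per degree of freedom 18.9 to 40.0), and p-values measure only the spread between these libraries. Of 55421 genes, 55240 were matched to GENCODE M21. Genes past filterByExpr were scaled with TMM and fitted in R 4.3.3 by edgeR 4.0.16, all 8 libraries together with a mean for each group (biological coefficient of variation 22.2%, 4 residual degrees of freedom). DESeq2 1.42.0 and 16 other settings were alternatives, and the script was tested on simulated counts. The set of genes, defined by name, and the lists were chosen with earlier results of these data known. Named in full were called genes or, with no call, the 3 with the smallest p, up to 3 for each pair of siPOOLs with further called genes given as values, the 3 highest and lowest by level, and from other lists up to 3 called genes. PCR reads without known identifiers are not independent molecules, so counts carry at least counting error.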

Additional observations from a re-analysis of the deposited data

How the results depend on the processing

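Of 1188 values recomputed under 17 alternatives, 1027 were counted as unchanged. For a single gene this means the same direction and side of the threshold. For a count of genes it means a count within a set fold of the reported one. For a median it means a shift smaller than the spread of the libraries compared, whatever its sign. The count of synthetase genes higher in siTfap4 than in siNeg, 2 as reported, was 4 with no filter beyond 1 count, 4 with a mean of at least 5 CPM, 1 with the compared groups alone, 4 with the replicate block, 5 with DESeq2, and 0 to 5 with a library left out. The count of lower genes, also 2, was 1 with the compared groups alone, 4 with the offset for G and C content and length, and 0 to 2 with a library left out. For siTfap4 against siWiz, higher genes (2) were 1 with library totals alone, 4 with no filter, 1 with the compared groups alone, and 0 to 5 with a library left out, and lower genes (2) were 0 to 2. For siTfap4 against siZic2, higher genes (5) were 8 with the replicate block and 0 to 6 with a library left out, and lower genes (3) were 0 to 3. There the offset shared 4 of the 8 calls and added Eprs and Yars2, and RLE factors, library totals, the compared groups alone and thinning each lost Vars2. The labels give the replicate numbers no shared origin, and deviations of same-numbered libraries correlated at -0.04 between siTfap4 and siWiz and at 0.13 to 0.33 between the other 5 pairs of groups, so the numbers were not taken as pairs. The block gave 3243 calls over all genes in siTfap4 against siNeg, against 2330 without it, and added Cars and Farsb there and Fars2, Gars and Yars against siZic2.

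With the offset the median log2 fold change in siTfap4 was -0.029 for cytosolic and 0.017 for mitochondrial genes. With a library left out it was 0.090 to 0.25 for mitochondrial genes in siTfap4, -0.11 to 0.17 for cytosolic genes in siWiz and -0.079 to 0.057 for mitochondrial genes in siZic2. Wiz passed the test with no filter (log2 -1.40, adjusted p = 0.0118) and with DESeq2 (-1.40). Single genes changed sign for Aars in siTfap4 against siNeg (-0.31 to 0.13 with a library left out, above 0 without siTfap4 replicate 1 or siNeg replicate 2) and Tarsl2 (-0.048 with library totals, -0.0053 with the compared groups alone, -0.33 to 0.52 with a library left out). They also did for Cars in siTfap4 against siWiz (-0.051 with the offset) and Mars in siZic2 against siNeg (-0.41 to 0.020 with a library left out, above 0 without siNeg replicate 2). Apart from fewer samples or genes in a fit, the cause was not tested. Of 832 values of single genes, 31 newly passed the test and 80 lost it. Where a library was left out, the lone remaining one is taken to vary as the other groups do. With 2 libraries a group, 15 of the 36 intervals in siTfap4 against siNeg allowed a change over 2-fold.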
